A study of Mus musculus with 8 samples.

Results

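Excitation-contraction coupling is the step by which an electrical signal at the surface of a muscle fibre releases calcium from its internal store, the sarcoplasmic reticulum. The 6 genes described here are Cacna1s, Jph1, Trdn, Jsrp1, Casq1 and Atp2a1. They were taken as the rows of the deposited table that carry these symbols, and are 6 of its 5457 genes. RNA came from tomato-positive cells that had been sorted from hind limb muscle of adult mice of the C57BL/6 strain and plated on Matrigel, and the libraries fell into 4 groups of 2 libraries. Tw2_48 and Tw2_GM cells came from Tw2-CreERT2/+;R26-tdTO+ mice, and Pax7_48 and Pax7_GM cells from Pax7-CreERT2/+;R26-tdTO+ mice. All 4 groups therefore carry 1 Cre allele and the tdTomato reporter, and all mice received 3 tamoxifen treatments, given 10 days before harvest. The reporter marks cells in which the Pax7 or Twist2 (Tw2) driver was active at the time of tamoxifen and their descendants, whatever they express later. GM is taken here as the growth medium of Ham's F10 with 20% fetal bovine serum. The protocols also give a differentiation medium of DMEM with 2% horse serum and bFGF, but do not say sample by sample which medium the 48 cultures had. The unit of 48 is hours in the Tw2 titles and is not written in the Pax7 titles, and the RNA is described as coming from freshly sorted cells. The sex and number of the mice, and whether the 2 libraries of a group came from separate mice or cultures, are not given, so the p-values measure the spread between these libraries, which may be technical.

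In skeletal muscle the voltage-sensing calcium channel Cav1.1, whose pore subunit is encoded by Cacna1s, sits in the transverse tubule and opens the ryanodine receptor Ryr1 in the facing membrane of the sarcoplasmic reticulum by direct coupling. Jph1 encodes junctophilin-1, which holds the 2 membranes together at the triad. Trdn encodes triadin, which links the ryanodine receptor to calsequestrin, the calcium-binding protein inside the store, of which Casq1 encodes the skeletal form. Jsrp1 encodes JP-45, a junctional protein that binds Cav1.1 and calsequestrin, and Atp2a1 encodes SERCA1, the fast-muscle pump that returns calcium to the store. These genes are switched on as myoblasts leave the cell cycle and fuse into myotubes.

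Each deposited value is a group mean in counts scaled to library size (CPM), which was taken apart into the values of its 2 libraries, called here the deeper and the shallower library. This gave whole reads for 5448 of the 5457 genes and for all 6 described here. The libraries' implied depths were 13.7 and 9.40 M reads in Tw2_48, 10.6 and 7.64 M in Pax7_48, 12.2 and 11.3 M in Tw2_GM and 7.38 and 5.18 M in Pax7_GM, and of a pair of library values the deeper library's is given first. The 2 Pax7_GM libraries were the least alike, with a standard deviation of 0.50 for the log2 ratio of their values over genes, against 0.17 to 0.20 in the other groups. The table is not a full transcriptome. Every gene in it differs from Tw2_GM in at least 1 deposited comparison by a log2 fold change of 1 or more in size, and every solved gene reached 10 CPM in at least 4 of the 8 libraries. Trdn reached 10 CPM in the 48 cultures alone, so that it had to differ between the cultures to be listed. Twist2 is not analysed here. The level of Pax7 was close in the 2 sorts, with 113 and 109 CPM in Tw2_GM libraries and 117 and 112 CPM in Pax7_GM libraries.

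Genome positions are those of GENCODE vM21 on GRCm38. Cacna1s lies on chromosome 1 at 136052750 to 136119822 on the plus strand, and Casq1 and Jph1 lie on the minus strand of the same chromosome at 172209894 to 172219868 and 16964560 to 17097889. Trdn lies on chromosome 10 at 33080554 to 33476709 on the plus strand, Jsrp1 on chromosome 10 at 80808496 to 80813498 on the minus strand, and Atp2a1 on chromosome 7 at 126445858 to 126463108 on the minus strand. Whether reads were counted by strand is not given in the sources used here, and 763 of the 3477 exonic bases of Atp2a1 lie opposite an exon of Rabep2, as do 1309 of the 6550 of Cacna1s opposite Gm37759, 156 of the 1951 of Casq1 opposite Gm17224 and 34 of the 4998 of Jph1 opposite Gm28376. Reads from such stretches cannot be told apart. By their longest transcripts the genes span much of the table in base composition. Trdn has a GC content of 36.8%, at percentile 0.791 of the listed genes, and Jsrp1 has 62%, at percentile 98.6. Jph1 has 46.7%, Casq1 51.8%, Cacna1s 54.1% and Atp2a1 55.3%, against a median of 48.7%.

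The 250 bases before the start of Cacna1s, Casq1 and Atp2a1, the genes whose GM levels differed most between the lineages, are shown because myogenic factors such as Myod1 and myogenin bind E-boxes. They are RefSeq sequences on GRCm38.p6, written 5′ to 3′ along the gene's own strand, with E-boxes in capitals. The windows are chr1:136052561-136052810 on the plus strand for Cacna1s, chr1:172219896-172220145 on the minus strand for Casq1 and chr7:126463074-126463323 on the minus strand for Atp2a1. The RefSeq starts that these windows precede, base 136052811 for Cacna1s, 172219895 for Casq1 and 126463073 for Atp2a1, are not the GENCODE gene ends given above, and the distances are counted from the RefSeq starts.
Cacna1s: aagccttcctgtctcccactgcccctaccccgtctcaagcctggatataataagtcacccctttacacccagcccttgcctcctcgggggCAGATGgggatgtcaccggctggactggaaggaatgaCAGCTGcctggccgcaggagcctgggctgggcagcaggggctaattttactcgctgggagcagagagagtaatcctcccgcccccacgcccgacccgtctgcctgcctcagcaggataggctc
Casq1: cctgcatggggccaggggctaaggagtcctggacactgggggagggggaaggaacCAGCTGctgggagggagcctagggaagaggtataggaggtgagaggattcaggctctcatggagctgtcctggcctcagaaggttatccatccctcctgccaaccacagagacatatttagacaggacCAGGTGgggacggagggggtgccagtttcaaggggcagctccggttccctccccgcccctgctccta
Atp2a1: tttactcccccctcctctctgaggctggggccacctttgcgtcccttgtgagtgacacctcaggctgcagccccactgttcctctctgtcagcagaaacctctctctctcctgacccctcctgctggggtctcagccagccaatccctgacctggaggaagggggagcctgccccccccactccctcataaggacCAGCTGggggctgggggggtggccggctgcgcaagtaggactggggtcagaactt
The E-box was searched as CANNTG and its form CAGCTG, which is counted among these, and both patterns read the same on either strand. All 3 windows hold CAGCTG, at 123 bases upstream of the RefSeq start in Cacna1s, 195 in Casq1 and 55 in Atp2a1. Cacna1s also holds CAGATG at 160 bases and Casq1 holds CAGGTG at 67 bases upstream. Of 32807 RefSeq promoter windows of this length, 66.2% hold CANNTG and 13% hold CAGCTG, and of the 5362 windows of listed genes 55.9% and 13.1% do. The core of the binding site of Mef2 factors, searched as CTA and TAG with any 4 bases between them, a pattern that reads the same on either strand, is in 3.2% of all windows, and these letters are not in any of the 3. Trdn, Jph1 and Jsrp1 are named without a sequence, because the promoter set used held no entry for them.

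**Figure D1:**
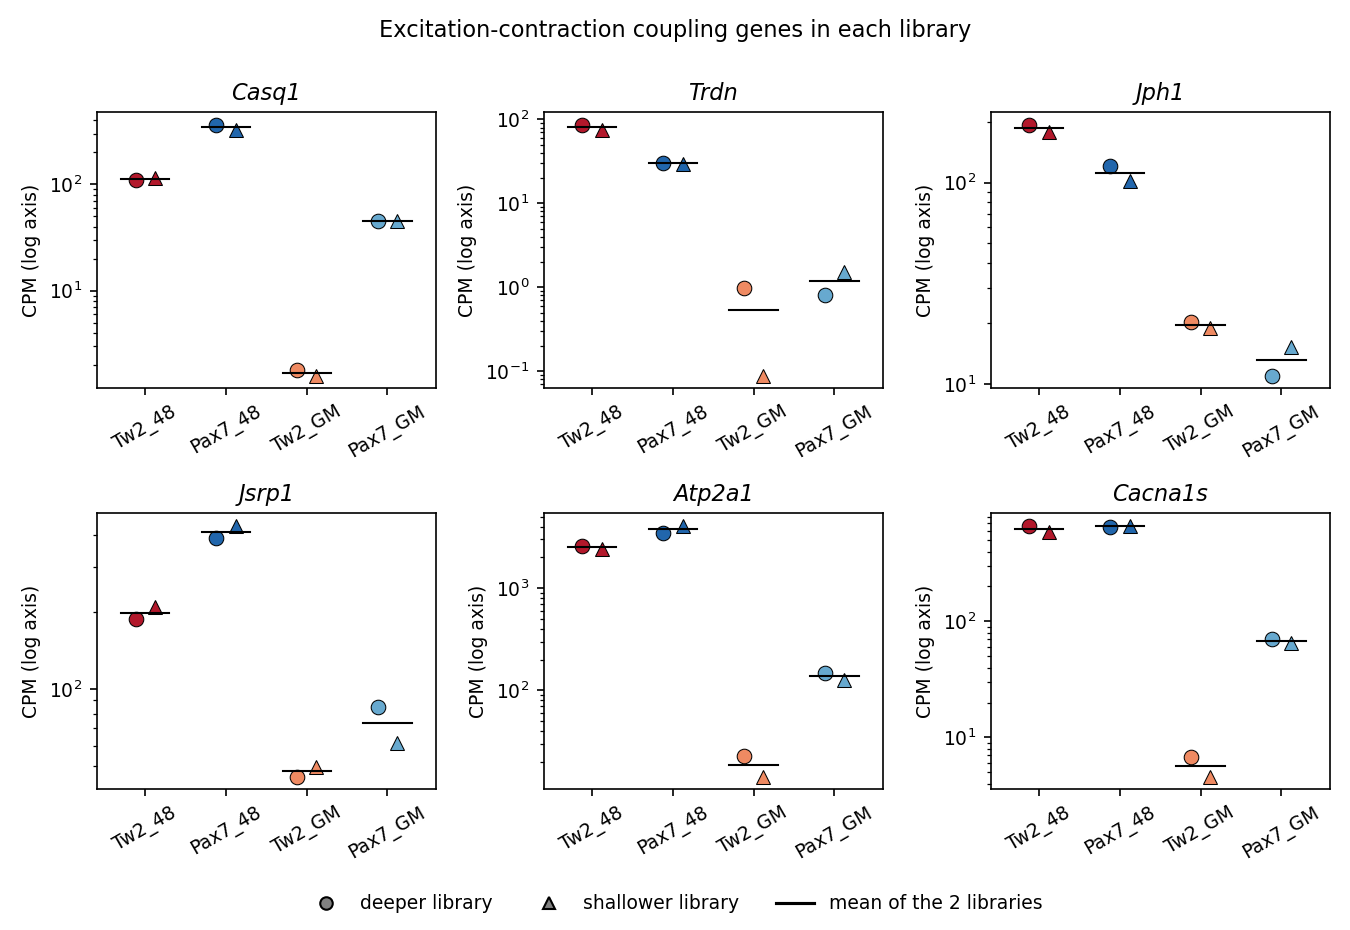
CPM of each of the 6 genes in every library, on a log axis, with circles for the deeper and triangles for the shallower library of a group and a line at their mean. In each panel both 48 groups lie above both GM groups, and the lineages are farthest apart in GM for Casq1 (at most 1.81 CPM in Tw2_GM and at least 45.3 CPM in Pax7_GM).

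Set against GM, the 48 cultures had more RNA of all 6 genes in both lineages, from the voltage sensor to the calcium pump. In Tw2 cells the log2 fold changes ran from 2.03 (Jsrp1) to 7.04 (Atp2a1), and in Pax7 cells from 2.49 (Jsrp1) to 4.77 (Atp2a1). All 6 were called higher in each lineage. For Trdn, which reached 10 CPM in the 48 cultures alone, this direction was set by the filter of the table. Of all genes tested, 84.1% were called in Tw2 cells (35.3% as higher and 48.8% as lower) and 79.2% in Pax7 cells (38.8% as higher and 40.4% as lower). The 48 and GM libraries of each of the 6 genes did not overlap in either lineage, as was so for 95% of all genes in Tw2 cells and 85% in Pax7 cells. The calls are at an adjusted p under 0.05 in limma on log2(CPM + 1), with Benjamini-Hochberg adjustment over 5448 genes. A fold change on this scale understates the change of genes near 1 CPM.

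Cacna1s, the voltage sensor, had 658 and 590 CPM in Tw2_48, 648 and 669 CPM in Pax7_48, 6.74 and 4.60 CPM in Tw2_GM, against 70.3 and 65.0 CPM in Pax7_GM. The 48 libraries of both lineages lay together, Pax7_GM lay in between and Tw2_GM lay lowest, with no overlap between 48 and GM. Against GM, Cacna1s rose by 6.57 ± 0.17 log2 units (SE) in Tw2 cells (adjusted p = 1.6e-08) and by 3.26 ± 0.17 in Pax7 cells (adjusted p = 7.38e-07). As ratios of mean CPM these are 110 and 9.73.

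Jph1, the tether of the 2 membranes, had 194 and 179 CPM in Tw2_48, 121 and 102 CPM in Pax7_48, 20.4 and 18.9 CPM in Tw2_GM, against 11 and 15.2 CPM in Pax7_GM. No 2 groups overlapped, and Tw2 libraries lay above Pax7 libraries in both cultures. Its rise was 3.18 ± 0.18 in Tw2 cells (adjusted p = 5.65e-07) and 3.01 ± 0.18 in Pax7 cells (adjusted p = 1.25e-06). It was 9.48-fold in Tw2 and 8.50-fold in Pax7 as a ratio of mean CPM.

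Trdn, the link between the release channel and calsequestrin, had 86.7 and 74.7 CPM in Tw2_48, 30.5 and 29.7 CPM in Pax7_48, 0.986 and 0.0885 CPM in Tw2_GM, against 0.813 and 1.54 CPM in Pax7_GM. The GM values rest on 12 and 1 reads in Tw2_GM and 6 and 8 reads in Pax7_GM, and the 2 GM groups overlap. At this depth 3 reads come to 0.246 and 0.266 CPM in Tw2_GM, against 0.406 and 0.579 CPM in Pax7_GM. Trdn rose by 5.79 ± 0.28 in Tw2 cells (adjusted p = 2.62e-07) and by 3.86 ± 0.28 in Pax7 cells (adjusted p = 4.07e-06). From the summed reads, the 48 to GM ratio was 148 in Tw2 cells (exact 95% interval 86.1 to 278) and 27.1 in Pax7 cells (16.0 to 49.9). These intervals, like the limits of 3 reads, cover counting error only. Since Trdn had to be higher in the 48 cultures to be listed, its p-values and intervals for 48 over GM do not test whether it rose. The log2 value in Tw2 cells depends on the pseudocount, at 3.95 with 5 CPM added in place of 1, and is 7.77 with limma voom on the solved reads.

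Jsrp1, the junctional partner of Cav1.1 and calsequestrin, had 187 and 208 CPM in Tw2_48, 387 and 434 CPM in Pax7_48, 45.4 and 49.7 CPM in Tw2_GM, against 84.9 and 61.5 CPM in Pax7_GM. It had the smallest rise of the 6 genes in both lineages, and Pax7 libraries lay above Tw2 libraries in both cultures. Jsrp1 rose by 2.03 ± 0.18 in Tw2 cells (adjusted p = 8.73e-06) and by 2.49 ± 0.18 in Pax7 cells (adjusted p = 3.4e-06). With a trend on GC content and transcript length removed, the Tw2 value was 1.32.

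Casq1, the calcium buffer of the store, had 111 and 115 CPM in Tw2_48, 365 and 328 CPM in Pax7_48, 1.81 and 1.59 CPM in Tw2_GM, against 45.4 and 45.3 CPM in Pax7_GM. The 4 groups are well separated, and the 2 libraries of each group differed by at most 1.13-fold. Its rise was 5.40 ± 0.13 in Tw2 cells (adjusted p = 1.43e-08) and 2.90 ± 0.13 in Pax7 cells (adjusted p = 3.25e-07). The ratios of mean CPM were 66.3 in Tw2 and 7.64 in Pax7. The Tw2 value was 4.14 with 5 CPM added and 6.01 with limma voom.

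Atp2a1, the calcium pump, had 2587 and 2428 CPM in Tw2_48, 3484 and 4101 CPM in Pax7_48, 22.8 and 14.3 CPM in Tw2_GM, against 149 and 126 CPM in Pax7_GM. It was the most abundant of the 6 genes in both 48 groups. It rose by 7.04 ± 0.22 in Tw2 cells (adjusted p = 3e-08), the rank 14 of 5448 changes from the highest, and by 4.77 ± 0.22 in Pax7 cells (adjusted p = 3.67e-07), rank 10. The ratios of mean CPM were 136 in Tw2 and 27.5 in Pax7.

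**Figure D2:**
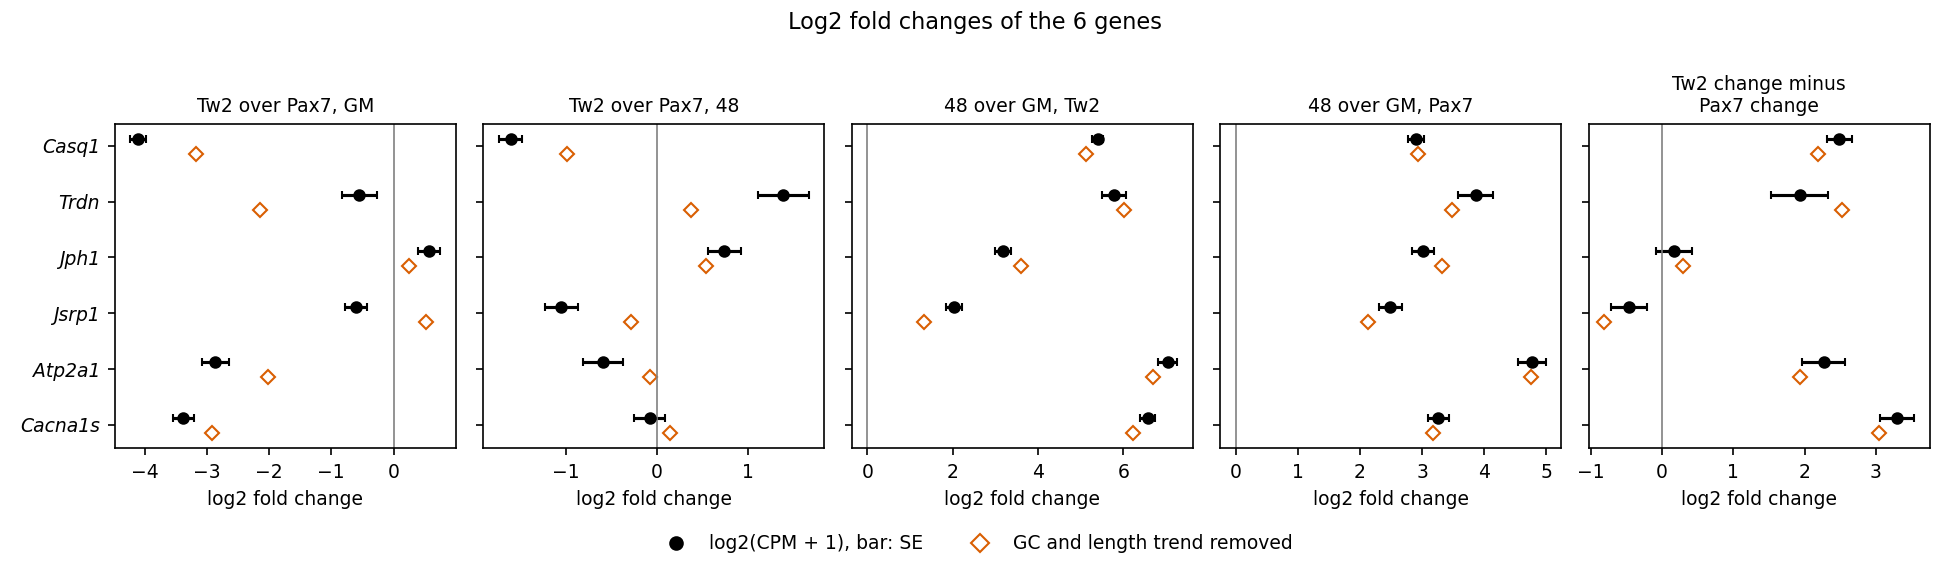
Log2 fold changes of the 6 genes in 5 panels, from left to right Tw2 over Pax7 in GM, Tw2 over Pax7 at 48, 48 over GM in Tw2, 48 over GM in Pax7, and the Tw2 change minus the Pax7 change. Filled points are the values on log2(CPM + 1) with their standard errors, and open diamonds are the values after removal of the GC and length trend. The 48 over GM changes lie right of 0 for every gene, while in GM Casq1, Atp2a1 and Cacna1s lie far left of 0 and the diamonds move Trdn to -2.15 and Jsrp1 to 0.53.

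The lineages were compared within GM, which the series' design names as its question. Tw2_GM cells had far less RNA of the calcium buffer Casq1, the voltage sensor Cacna1s and the pump Atp2a1 than Pax7_GM cells. Of the 6 genes, 4 were called lower in Tw2 and 1, Jph1, higher, where 74.7% of all genes tested were called, 26% as lower and 48.7% as higher. Tw2_GM values lay below Pax7_GM values without overlap for Casq1, Cacna1s, Atp2a1 and Jsrp1, above them for Jph1, and overlapped for Trdn. Among all genes, 87.8% did not overlap. In these bulk RNA samples, fewer cells of a type and less RNA per cell cannot be told apart.

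Casq1 fell by 4.10 ± 0.13 log2 units in Tw2_GM against Pax7_GM (adjusted p = 3.58e-06), a mean of 1.70 ± 0.151 CPM against 45.4 ± 0.034 CPM (SD, n = 2 each). This placed it at rank 5445 of 5448 from the highest. Cacna1s fell by 3.38 ± 0.17 (adjusted p = 6.23e-06), with 5.67 ± 1.51 CPM in Tw2_GM and 67.7 ± 3.75 CPM in Pax7_GM. Atp2a1 fell by 2.86 ± 0.22 (adjusted p = 3.4e-05), with 18.5 ± 6.01 CPM in Tw2_GM and 138 ± 16.0 CPM in Pax7_GM. After removal of the GC and length trend, the 3 differences were -3.18, -2.91 and -2.02, and each passed the threshold under the 16 alternatives run, leaving out each library in turn included.

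The differences of the junctional genes in GM were small and turned on the processing. Jsrp1 was 0.60 ± 0.18 lower in Tw2_GM (adjusted p = 0.0142), but 0.53 higher with the GC and length trend removed (adjusted p = 0.00127), and missed the threshold without the deeper Tw2_GM library (-0.53, adjusted p = 0.0853). Jph1 was 0.57 ± 0.18 higher (adjusted p = 0.0178). Trend removal gave 0.25 (adjusted p = 0.11) and size factors gave -0.25, and it missed the threshold without either Tw2_GM library. Trdn had a log2 fold change of -0.55 ± 0.28 that did not pass (adjusted p = 0.108), and the ratio of its summed reads was 0.497 in Tw2_GM over Pax7_GM (exact 95% interval 0.215 to 1.14). With the trend removed it was called lower (-2.15, adjusted p = 4.12e-05), as it was with size factors (-0.85) and without the deeper Tw2_GM (-0.98) or the deeper Pax7_GM library (-0.79), while quantile normalization gave 0.17. Size factors move the median of all genes by -0.84 in this comparison and quantile normalization by -0.48. Of all called genes, 65.2% were higher in Tw2_GM with CPM, 81% after trend removal, 47.2% after quantile normalization and 32.1% after scaling by size factors.

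In the 48 cultures the lineages did not differ in Cacna1s beyond the spread of the libraries, and the other genes were split. Trdn and Jph1 were called higher in Tw2_48, and Casq1, Jsrp1 and Atp2a1 lower. Of all genes tested, 65.5% were called, 43.4% as higher and 22.1% as lower. Tw2_48 libraries lay above Pax7_48 libraries for Trdn and Jph1, below them for Casq1, Jsrp1 and Atp2a1, and among them for Cacna1s. Among all genes, 89.6% did not overlap.

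Casq1 fell by 1.61 ± 0.13 in Tw2_48 (adjusted p = 0.000117), to 113 ± 3.11 CPM against 347 ± 26.1 CPM in Pax7_48, and by 0.99 with the trend removed. Jsrp1 fell by 1.05 ± 0.18 (adjusted p = 0.00186), to 197 ± 14.5 CPM against 411 ± 33.0 CPM, and by 0.28 with the trend removed (adjusted p = 0.0355). Atp2a1 fell by 0.59 ± 0.22 (adjusted p = 0.0396), a call that was lost with the trend removed (-0.08, adjusted p = 0.739), with quantile normalization (-0.48) and without any single library of the 4, the deeper or shallower Tw2_48 (-0.64 and -0.55) or the deeper or shallower Pax7_48 (-0.71 and -0.47).

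Trdn rose by 1.39 ± 0.28 in Tw2_48 (adjusted p = 0.00377). The ratio of its summed reads was 2.71 (exact 95% interval 2.46 to 2.98), from 1892 reads in Tw2_48 and 552 in Pax7_48. After removal of the GC and length trend the value was 0.38 and missed the threshold (adjusted p = 0.127). Trdn has the lowest GC content of the 6 genes. Jph1 rose by 0.74 ± 0.18 (adjusted p = 0.00718), and by 0.54 with the trend removed. Its call was lost with size factors (0.08) and without the deeper Tw2_48 (0.68) or the shallower Pax7_48 library (0.62). Cacna1s had a log2 fold change of -0.08 ± 0.17 (adjusted p = 0.7), which does not show that the groups were equal, and was called lower with size factors (-0.74, adjusted p = 0.00431). Size factors move the median of all genes by -0.63 here, and the share of called genes that were higher in Tw2_48 was 66.2% with CPM, 78.2% after trend removal, 48.4% after quantile normalization and 26.3% after scaling by size factors.

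The change on 48 culture was then set against the other lineage's, as the Tw2 change minus the Pax7 change in the same limma fit. This difference equals the Tw2 against Pax7 value at 48 minus that in GM, so a low level in Tw2_GM by itself makes it larger. Cacna1s, Casq1, Atp2a1 and Trdn were called as rising more in Tw2 cells, and Jph1 and Jsrp1 did not pass. Among all genes tested 18.8% were called, 9.73% as higher and 9.03% as lower. The difference was 3.30 ± 0.24 for Cacna1s (adjusted p = 0.000178), 2.49 ± 0.18 for Casq1 (adjusted p = 0.000178) and 2.27 ± 0.30 for Atp2a1 (adjusted p = 0.00219). These 3 passed under the 16 alternatives run, although the value of Casq1 was 1.33 with 5 CPM added. Cacna1s was at rank 12 of 5448 from the highest, Casq1 at rank 60 and Atp2a1 at rank 76. Trdn had 1.93 ± 0.40 (adjusted p = 0.0132), which was lost with quantile normalization (0.79, adjusted p = 0.146), and without the deeper Tw2_48 (1.83), the deeper Pax7_48 (1.95) or the shallower Pax7_48 library (1.92). Jph1 had 0.17 ± 0.25 (adjusted p = 0.618). Jsrp1 had -0.46 ± 0.25 (adjusted p = 0.209), and -0.81 with the trend removed (adjusted p = 0.0037). Without the deeper Pax7_GM library Jsrp1 also passed, at -0.69. Of all called genes, 51.9% changed more upward in Tw2 cells with CPM, 34.3% after trend removal, 60% after quantile normalization and 74.6% after scaling by size factors.

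**Figure D3:**
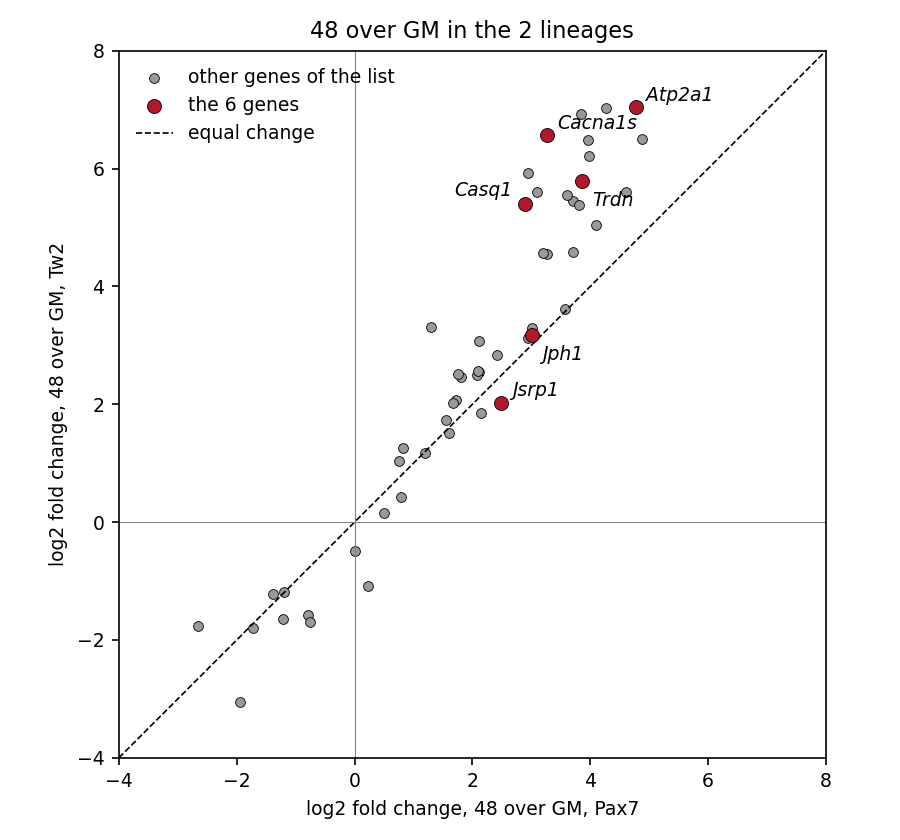
Log2 fold change of 48 over GM in Tw2 cells (vertical axis) against that in Pax7 cells (horizontal axis), with the 6 genes in red, the other listed coupling and calcium genes in grey and a dashed line of equal change. Cacna1s (6.57 in Tw2, 3.26 in Pax7), Casq1, Atp2a1 and Trdn lie above the line, and Jph1 and Jsrp1 lie close to it.

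The order of the groups differed between the genes. Casq1, Jsrp1, Atp2a1 and Cacna1s were highest in Pax7_48, followed by Tw2_48, Pax7_GM and Tw2_GM, with overlap only between the 48 groups for Cacna1s. Trdn was highest in Tw2_48, followed by Pax7_48, Pax7_GM and Tw2_GM, of which the last 2 overlapped. Jph1 was highest in Tw2_48, followed by Pax7_48, Tw2_GM and Pax7_GM. Over the 8 libraries the log2(CPM + 1) of Cacna1s and Atp2a1 had the highest Pearson r of any pair of the 6 genes, 0.991, and those of Casq1 and Jph1 the lowest, 0.673. These are descriptions over 8 libraries in 4 groups that share the culture difference.

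Summed over the 6 genes, the level was 3823 and 3595 CPM in Tw2_48, 5036 and 5663 CPM in Pax7_48, 98.1 and 89.1 CPM in Tw2_GM, against 361 and 315 CPM in Pax7_GM. To compare genes with each other, CPM was divided by the length of the longest transcript in kb. On that scale Atp2a1 made up 67% and 65.5% of the sum of the 6 genes in Tw2_48 and 61.6% and 64.8% in Pax7_48, but 13.8% and 8.70% in Tw2_GM and 29.5% and 30% in Pax7_GM. Jsrp1 took the largest share in GM, 72.4% and 79.5% in Tw2_GM and 44.1% and 38.3% in Pax7_GM, against 12.7% and 14.7% in Tw2_48 and 18.0% in both Pax7_48 libraries. Per kb, RNA of Atp2a1 thus made up most of the set in the 48 groups, and RNA of Jsrp1 the largest share in the GM groups. Jsrp1 has the shortest transcript of the 6 genes, 1.32 kb, and the highest GC content. In CPM, Atp2a1 lay above Jsrp1 in Pax7_GM (149 and 126 against 84.9 and 61.5 CPM) and below Jsrp1 in Tw2_GM. The ratio of Casq1 to Trdn per kb was 3.12 and 3.76 in Tw2_48 against 29.2 and 27.0 in Pax7_48, with the low GC content of Trdn given above.

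Cacna1s, Casq1, Atp2a1 and Jph1 have relatives that are used in heart, slow muscle or other tissues. Casq2 encodes the cardiac and slow-muscle calsequestrin, Atp2a2 the SERCA2 pump of slow muscle, heart and most cells, and Jph2 the main junctophilin of the heart. As shares per kb, Casq1 was 6.09% and 6.50% of Casq1 plus Casq2 in Tw2_48, 19.3% and 19.5% in Pax7_48, 10.5% and 12.4% in Tw2_GM and 32.5% and 30.2% in Pax7_GM. The libraries of the 4 groups do not overlap, and Casq2 was the larger part in all 8. Casq2 itself had 2361 and 2289 CPM in Tw2_48, 2107 and 1872 CPM in Pax7_48, 21.3 and 15.6 CPM in Tw2_GM, against 131 and 145 CPM in Pax7_GM. It was called lower in Tw2_GM (-2.85 ± 0.17, adjusted p = 1.09e-05) and had 0.23 ± 0.17 at 48, which did not pass.

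Atp2a1 was 74.4% and 75.8% of Atp2a1 plus Atp2a2 in Tw2_48, 82.9% and 84.9% in Pax7_48, 5.77% and 3.77% in Tw2_GM and 33.0% and 27.5% in Pax7_GM. Atp2a2 rose by 1.17 ± 0.13 in Tw2 cells and 1.19 ± 0.13 in Pax7 cells, and the fast-muscle pump outweighed it in the 48 groups and not in the GM groups. Jph1 was 14.7% and 13.6% of Jph1 plus Jph2 in Tw2_48, 10.4% and 9.08% in Pax7_48, 4.85% and 4.67% in Tw2_GM and 2.74% and 4.86% in Pax7_GM. The GM groups overlap in this share. The pairs were set with the values known and are given without a test. Cacna1c, Ryr2, Jph3 and Atp2a3 are not analysed here.

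**Figure D4:**
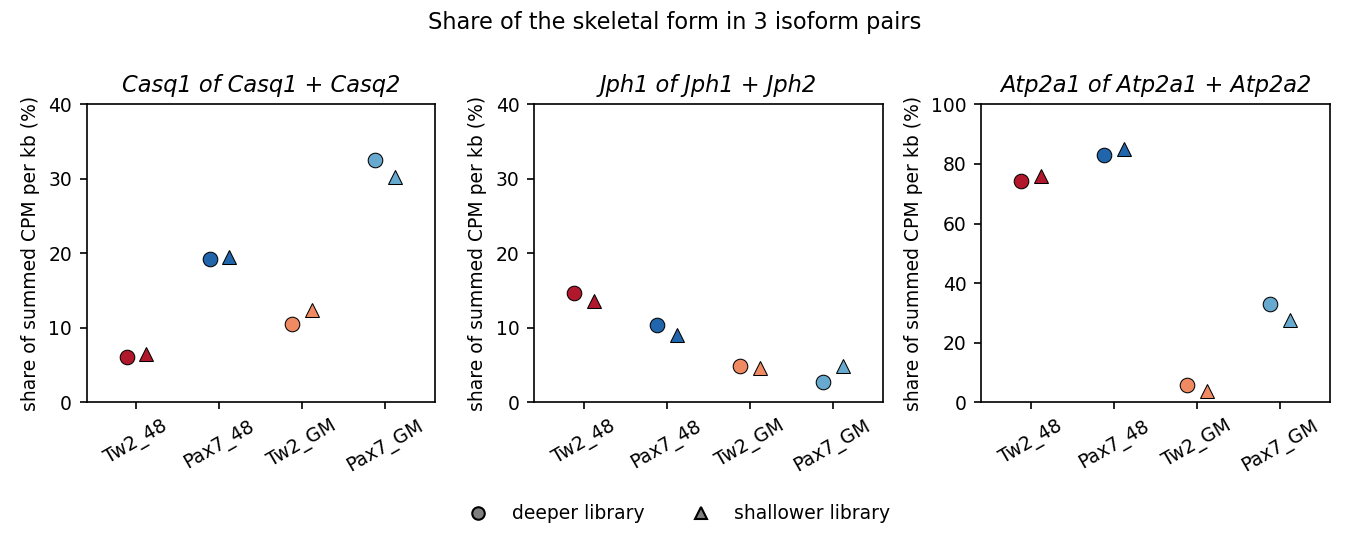
Share, in percent of summed CPM per kb, of Casq1 in Casq1 plus Casq2, of Jph1 in Jph1 plus Jph2 and of Atp2a1 in Atp2a1 plus Atp2a2 in every library, with circles for deeper and triangles for shallower libraries and a separate scale for Atp2a1. Atp2a1 is at least 74.4% in the 48 groups and at most 33.0% in the GM groups, and Casq1 stays at or under 32.5% throughout.

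Other genes of the triad and of calcium handling were counted from a list of 79 symbols, of which 46 are in the table. In 48 against GM, 35 were called higher in Tw2 cells and 10 lower (median log2 fold change 2.54, against -0.49 over all genes tested), and 35 higher and 8 lower in Pax7 cells (median 2.08, against 0.01). In GM, 10 were called higher and 32 lower in Tw2 (median -0.72, against 0.34), or 10 higher and 23 lower with the trend removed (median -0.34). In the 48 cultures, 14 were called higher and 16 lower in Tw2 (median -0.19, against 0.27), or 15 higher and 11 lower with the trend removed (median 0.17). For the difference of the changes, 19 were called higher and 2 lower (median 0.42, against -0.22). Of all genes, 35.3% were called higher and 48.8% lower for 48 over GM in Tw2 cells, and 38.8% and 40.4% in Pax7 cells. For Tw2 against Pax7 these shares were 48.7% and 26% in GM, and 43.4% and 22.1% at 48. For the difference of the changes they were 9.73% and 9.03%. Ryr3, Cacng6, Scn4a and 2310015B20Rik stayed under 10 CPM in all GM libraries, so that, like Trdn, they had to be higher in 48 cultures to be listed.

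The release channel Ryr1 had 1145 and 1021 CPM in Tw2_48, 1257 and 1396 CPM in Pax7_48, 50 and 40.7 CPM in Tw2_GM, against 132 and 141 CPM in Pax7_GM. It rose by 4.55 ± 0.15 in Tw2 cells and by 3.27 ± 0.15 in Pax7 cells (3.59 and 2.63 with the trend removed), and fell by 1.58 ± 0.15 in Tw2_GM against Pax7_GM. At 48 its difference of -0.29 ± 0.15 did not pass. Ryr3, a second ryanodine receptor of young muscle, had 51.3 and 44.4 CPM in Tw2_48, against 19.2 and 19.6 CPM in Pax7_48, and 3 and 0 reads in Tw2_GM and 4 and 3 reads in Pax7_GM.

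Genes for auxiliary subunits of voltage-gated calcium channels also rose in both lineages. Cacnb1 changed by 3.30 ± 0.13 in Tw2 and 3.01 ± 0.13 in Pax7 cells, Cacng1 by 4.58 ± 0.16 (3.76 with the trend removed) and 3.70 ± 0.16, Cacng6 by 5.04 ± 0.18 and 4.10 ± 0.18, and Cacna2d1 by 1.85 ± 0.21 and 2.15 ± 0.21, in that order of lineages. Of these, Cacna2d1 was the subunit called higher in Tw2 in both cultures (1.70 ± 0.21 in GM and 1.40 ± 0.21 at 48), with 0.18 and 0.38 when the trend was removed at a GC content of 40.7%. Stac3, the adaptor that Cav1.1 needs for coupling in skeletal muscle, rose by 2.47 ± 0.14 in Tw2 and 1.81 ± 0.14 in Pax7 cells and fell by 1.02 ± 0.14 in Tw2_GM (0.08 with the trend removed). Stac2, a related adaptor, fell by 1.57 ± 0.17 in Tw2_48 against Pax7_48.

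Some other proteins of the store and the fibre membrane had lower RNA levels in Tw2_GM too, of which Srl and Tmem38a were chosen after their values were seen. Of the 46 listed genes, 32 were called lower and 10 higher in Tw2_GM. Asph, also chosen after its values were seen, was called higher there (1.23 ± 0.20, or 0.34 with the trend removed). Jph2 (0.20 ± 0.15) and Atp2a2 (0.21 ± 0.13) did not pass. Hrc, a histidine-rich calcium-binding protein of the store, had 567 and 536 CPM in Tw2_48, 421 and 419 CPM in Pax7_48, 4.11 and 2.57 CPM in Tw2_GM, against 19.2 and 23.0 CPM in Pax7_GM, and its change was 2.76 ± 0.26 larger in Tw2 cells (adjusted p = 0.000454). Srl, which encodes sarcalumenin, fell by 1.83 ± 0.15 in Tw2_GM and rose by 0.41 ± 0.15 in Tw2_48 against Pax7 cells. Tmem38a, the potassium channel TRIC-A of the store, fell by 2.27 ± 0.16 in Tw2_GM and by 0.70 ± 0.16 in Tw2_48 (-1.28 and -0.05 with the trend removed). Trim72, which encodes a membrane repair protein, fell by 3.19 ± 0.14 in Tw2_GM, and the kinase gene Camk2b by 3.40 ± 0.14 (-2.13 and -2.71 with the trend removed). The sodium channel gene Scn4a rose by 6.51 ± 0.14 in Tw2 cells, where its GM libraries had at most 0.411 CPM, and by 4.87 ± 0.14 in Pax7 cells.

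Some more widely expressed calcium genes fell on 48 culture. The inositol trisphosphate receptor genes Itpr1, Itpr2 and Itpr3, chosen after their values were seen, fell by 1.76, 3.05 and 1.18 log2 units in Tw2 cells and by 2.66, 1.94 and 1.19 in Pax7 cells. Of these, Itpr2 stayed under 10 CPM in all libraries of the 48 cultures, so that it had to be higher in GM to be listed. Slc8a1, the sodium-calcium exchanger, fell by 1.22 ± 0.18 in Tw2 and 1.38 ± 0.18 in Pax7 cells (-1.50 and -2.12 with the trend removed), and rose by 1.57 ± 0.18 in Tw2_48 against Pax7_48 (0.40 with the trend removed, at a GC content of 40.2%). Homer1, a scaffold protein with a GC content of 36.9%, rose by 1.43 ± 0.23 in Tw2_48 (0.32 with the trend removed). S100a1, a small calcium sensor of muscle, fell by 2.16 ± 0.17 in Tw2_48 and by 2.58 ± 0.17 in Tw2_GM (-1.20 and -1.17 with the trend removed). It stayed under 10 CPM in all Tw2 libraries, so that it had to be higher in Pax7 libraries to be listed.

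Genes whose log2(CPM + 1) over the 8 libraries ran most like the mean standardised profile of the 6 genes were Ppap2a (Pearson r = 0.9995), Asb2 (0.9994), Ryr1 (0.9993), Prkag3 (0.9993), Chrd (0.9991), Scn4a (0.9988), Mtfr1l (0.9988), Tmco3 (0.9987), Dpep1 (0.9986) and Ddc (0.9986). The 6 genes themselves had r from 0.903 (Jph1) to 0.996 (Atp2a1) with that profile. With 4 groups of 2 libraries, these values rest mainly on 4 group means.

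Markers of muscle differentiation and of other cells ran beside these genes, and their part in the results was not tested. Of 38 sarcomere genes tested, 37 were called higher and 1 lower at 48 in each lineage, where 35.3% of all genes in Tw2 cells and 38.8% in Pax7 cells were called higher. Myh4 and Myoz2 stayed under 10 CPM in all GM libraries, so that they had to be higher in the 48 cultures to be listed. Myh3, Acta1, Actc1 and Mylpf are in the table but were not solved, so they are not among the 38 genes tested. In GM 33 of the sarcomere genes were called lower and 0 higher in Tw2 cells, against 26% and 48.7% of all genes, or 30 lower and 4 higher with the trend removed. In the 48 cultures 10 were called higher and 9 lower in Tw2 cells, against 43.4% and 22.1% of all genes. After trend removal 25 were higher and 4 lower, where 78.2% of all called genes were higher. Myog, the factor of early differentiation, had 3697 and 3859 CPM in Tw2_48, 2491 and 2247 CPM in Pax7_48, 110 and 89.1 CPM in Tw2_GM, against 439 and 351 CPM in Pax7_GM. Like Casq1, Cacna1s and Atp2a1 it was called lower in Tw2_GM (-1.98 ± 0.16, or -0.80 with the trend removed), while at 48 it was higher in Tw2 (0.67 ± 0.16, adjusted p = 0.00803, or 1.45 with the trend removed). The fusion genes Tmem8c and Gm7325 fell by 2.35 ± 0.13 and 3.11 ± 0.21 in Tw2_GM (-1.15 and -1.69 with the trend removed).

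Of 13 satellite cell markers 8 were measured, and their sums were 5563 and 5501 CPM in Tw2_48, 7927 and 8504 CPM in Pax7_48, 2436 and 2411 CPM in Tw2_GM, against 3437 and 2896 CPM in Pax7_GM, most of it Des and Itga7. While these sums were higher at 48, 4 of the 8 markers were called lower and 3 higher in Tw2 cells, and 5 lower and 3 higher in Pax7 cells. The shares over all genes tested were 48.8% lower and 35.3% higher in Tw2 cells, and 40.4% lower and 38.8% higher in Pax7 cells. The marker gene Pax7 fell by 3.02 ± 0.12 at 48 in Tw2 cells and fell by 3.42 ± 0.12 in Pax7 cells. Vcam1 fell by 4.33 ± 0.18 in Tw2 cells and fell by 3.18 ± 0.18 in Pax7 cells. Of 9 smooth muscle and pericyte markers 6 were measured, with 8934 and 8539 CPM in Tw2_48, 5325 and 5609 CPM in Pax7_48, 847 and 906 CPM in Tw2_GM, against 987 and 857 CPM in Pax7_GM. Acta2, which differentiating myoblasts also express, made up most of these sums, while the pericyte gene Rgs5 had 0.510 and 0.213 CPM in Tw2_48, 0 in Pax7_48, 56.3 and 62.1 CPM in Tw2_GM, against 11.4 and 18.9 CPM in Pax7_GM. Abcc9, another pericyte marker, ran the other way, with 92.3 and 80.2 CPM in Tw2_48, 102 and 109 CPM in Pax7_48, 1.31 and 1.24 CPM in Tw2_GM, against 3.52 and 5.98 CPM in Pax7_GM. Rgs5 stayed under 10 CPM in all libraries of the 48 cultures, and Abcc9 in all GM libraries. To be listed, Rgs5 thus had to be higher in GM and Abcc9 higher in the 48 cultures. Of 13 markers of fibro-adipogenic progenitors 5 were measured, with sums of 380 and 393 CPM in Tw2_48, 494 and 469 CPM in Pax7_48, 1241 and 1173 CPM in Tw2_GM, against 983 and 994 CPM in Pax7_GM. These markers did not move together in GM, where Col3a1, the largest part of the sum in Tw2_GM, was 1.04 ± 0.12 higher in Tw2 cells, while Col1a2 was 6.51 ± 0.44 log2 units lower (adjusted p = 1.89e-05), with 3.61 and 3.28 CPM in Tw2_GM, against 424 and 387 CPM in Pax7_GM. At 48 Col1a2 had 6.84 and 24.1 CPM in Tw2_48, against 270 and 246 CPM in Pax7_48. Of 8 immune markers only Itgam was measured, at 0 in Tw2_GM and at most 22.8 CPM elsewhere, and the listed endothelial, cardiac and glial markers are not analysed here.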

How the data were processed

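The authors deposited mean CPM per group, 3 log2 fold changes against Tw2_GM and a status score of 1 for every gene. Per the submitters' processing notes, TopHat2 2.0.0, DESeq2 1.6.3 and GRCm38 (mm10) were used, with no roles stated, and the counting tool, annotation and strand handling are not given in the sources used here. The deposited log2 fold changes equal log2 of (mean + 1) over (Tw2_GM mean + 1) to within 1.4e-11.

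In each library 1 read is worth a fixed CPM step, so every group mean must be built from whole reads of 2 such steps. Solving for the steps gave the reads of each library for 5448 genes. The other 9 were left out of the tests. The implied library sizes are not whole numbers, so the scale may not be plain read totals. The solver and the test were checked on simulated data.

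Tests used limma 3.58.1 (R 4.3.3) on log2(CPM + 1), fitting the 8 libraries with a mean for each group, with 4 residual degrees of freedom, eBayes without trend and Benjamini-Hochberg adjustment over 5448 genes. A gene was called at an adjusted p under 0.05. The titles number the samples 1 and 2 in each group, but the solved libraries cannot be matched to these numbers, so none were paired.

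The GC content and length of the longest GENCODE transcript were matched for 5436 genes (99.6%). The trend-removed values subtract from each library a spline of its deviations on both.

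The members and lists were chosen with earlier results of these data known. Named genes are the 6 members, up to 4 called genes with the largest change per list and comparison, the relatives of the members, and the 10 genes of most like profile. A gene that the rule gives is not reported here.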

Additional observations from a re-analysis of the deposited data

Results flagged for a closer look

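For 4 of the 6 genes, the change of 48 over GM differed between the lineages by a test of the difference itself (limma, Tw2 change minus Pax7 change). Over all genes tested 18.8% were called, 9.73% as higher and 9.03% as lower. The log2 difference was 3.30 for Cacna1s, 2.49 for Casq1, 2.27 for Atp2a1 and 1.93 for Trdn. All 4 changes were upward in both lineages and larger in Tw2 cells. The first 3 passed under every alternative with a test, and Trdn missed the threshold with quantile normalization and without 3 of the 8 libraries, each left out alone.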

How the results depend on the processing

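No paired analysis was possible because the deposited values are group means, and the solved libraries cannot be matched to the numbers 1 and 2 in the sample titles. Of 492 recomputed log2 fold changes with a test, 460 kept their direction and side of the threshold, 19 lost the call, 7 gained it and 6 changed sign. Part of these could not change sign, because leaving out libraries of a group outside a comparison moves its p-value but not its log2 fold change. All calls of 48 over GM held under every alternative run, although the direction for Trdn was set by the filter of the table. Those that changed sign were, for Tw2 against Pax7 in GM, Trdn with quantile normalization (0.17), Jph1 with size factors (-0.25) and Jsrp1 with the GC and length trend removed (0.53). They were also Cacna1s at 48 with the trend removed (0.14), and, for the difference of the changes, Jph1 without the shallower Pax7_GM library (-0.05, the lowest of a range up to 0.39 with 1 library left out) and Jsrp1 with quantile normalization (0.08). The count of genes called higher in Tw2_GM, 1 as reported, was 0 with size factors, 0 with quantile normalization and 0 to 1 with 1 library left out. The count called higher in Tw2_48, 2 as reported, was 1 with size factors, 1 with the trend removed and 1 to 2 with 1 library left out. The count with a smaller rise in Tw2 cells, 0 as reported with limma, 0 at an unadjusted p under 0.05 and 0 with limma voom, was 1 with the trend removed and 0 to 1 with 1 library left out. Size factors shift the median log2 fold change of all genes by 0.45 for 48 over GM in Tw2, 0.24 in Pax7 and 0.22 for their difference, and quantile normalization by 0.24, 0.13 and 0.16. A fit without the 2 Pax7_GM libraries was chosen after seeing the data and changed no call it could test. The cause of these dependences was not tested. Depth limits Trdn in GM, which rests on 1 to 12 reads a library.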
